A study of Mus musculus with 24 samples.

Results

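Histidine decarboxylase, encoded by Hdc, is the enzyme that makes histamine, and HDC-KO mice lack it. The arrays compared here measured RNA from CD11b+ cells of the spleen after myocardial infarction (MI), 3 arrays from HDC-KO mice and 3 from wild-type (WT) mice, at 1, 2, and 4 weeks after MI in each genotype. These are 6 of the 24 one-colour (Cy3) Agilent mouse arrays of the study, which also covered STAT6-KO mice, bone marrow, and control mice, and they were chosen by genotype, tissue, and time alone. Each array held cells pooled from 5 mice, so a group had 1 array per time point. The mice were Balb/C males, 10 weeks old. How the HDC-KO allele was made, and whether the Hdc probe lies in the deleted part, are not given in the sources used here. The HDC-KO spleen control array held 229 spots and was not analysed here, so the WT spleen control array is the one level outside MI. It had the same scan date as the WT arrays after MI.

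CD11b, the product of Itgam, pairs with Itgb2 to form an integrin found on neutrophils, monocytes, and macrophages. The spleen stores such cells and releases them after MI. Its red pulp holds macrophages that take up aged red blood cells and recycle their iron, and its marginal zone holds macrophages that filter the blood. In myeloid cells, Hdc is expressed mainly in immature and granulocytic cells and in basophils, and histamine acts on them through its own receptors.

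A level is given throughout as a log2 signal relative to the 75th percentile of the array, and a difference as HDC-KO minus WT on that scale, the mean of the 3 pairs of equal time with its standard error (SE) and a limma p adjusted over all 25915 genes tested. A pair has 1 array on each side. The SE and p come from a limma fit to the 9 spleen arrays after MI, STAT6-KO included, and not from the 3 pairs alone. The fit takes its spread across time points and shares it between genes, and it holds no measure of the variation between mice or cultures. By the array headers the WT arrays shared one scan date and the HDC-KO arrays another, and arrays of 1 scan date are taken here as 1 slide. Within a slide each time point had its own position. Slide and genotype cannot be told apart. At each array, between 70.4% and 79.0% of spots were well above background. The CD11b sort was visible in both groups: Itgam was at 4.83, 4.31, and 4.52 in WT and at 4.31, 3.56, and 3.87 in HDC-KO, a difference of -0.64 ± 0.20 (SE, adjusted p = 0.107, limma). Most other myeloid markers looked at for the sort were lower in HDC-KO too, none at an adjusted p under 0.05. Lyz2 differed by -0.64, Itgb2 by -0.53, S100a8 by -0.37, Csf3r and Spi1 by -0.34 each, S100a9 by -0.20, and Csf1r by 0.05. Xist, the RNA of the inactive X chromosome of females, was not well above background on any WT array by one of its probes (levels -8.29, -8.69, and -8.77), and was well above it on all 3 HDC-KO arrays (-1.22, -0.89, and -0.74), although all samples are labelled male. Its other probe was well above background on 1 WT array and on all 3 HDC-KO arrays. The median level of the Y-linked genes Ddx3y, Eif2s3y, Kdm5d, and Uty was -2.52, -2.21, and -1.90 in WT and -3.23, -2.75, and -3.86 in HDC-KO. Only autosomal genes are reported below, and the part of the sex of the mice in their values was not tested.

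Hdc was lower in HDC-KO than in WT spleen CD11b+ cells, with signal left in HDC-KO. Its level was 4.73, 4.32, and 4.83 in WT at 1, 2, and 4 weeks, 4.54 on the WT control array, and 1.76, 1.67, and 1.93 in HDC-KO. The groups did not overlap, and on all 3 HDC-KO arrays the signal was still well above background and above the array's 75th percentile. The difference was -2.84 ± 0.18 (SE, adjusted p = 0.00389, limma), a 7.17-fold lower signal. Hdc was the 1 of 8 genes of histamine handling that passed, against 1.85% of all genes called lower. Hnmt, the enzyme that breaks histamine down by methylation, differed by -0.80 ± 0.27 (adjusted p = 0.126), and the receptor genes Hrh4 and Hrh1 differed by 0.38 ± 0.31 and 0.14 ± 0.13.

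Of 16489 autosomal genes tested, 835 (5.06%) passed the threshold of an adjusted p under 0.05, 530 (3.21%) higher and 305 (1.85%) lower in HDC-KO. With arrays scaled to the median, which lowers all differences by 0.17, the split was 311 higher and 471 lower. The number of calls depended on the setting. It was 0 after normexp background correction (limma; 1142 genes at an unadjusted p under 0.05), 950 with normexp on the 6 arrays alone, and 0 without the 4 week arrays (3139 at an unadjusted p under 0.05). Many calls were of probes dim in WT: of the 828 genes well above background on at most 1 WT array, 157 (19%) were called higher. Such genes could enter the test only with the help of HDC-KO arrays, so that this share leans to rises by selection. Among 14593 genes well above background on all 6 arrays, 576 (3.95%) were called, 318 (2.18%) higher and 258 (1.77%) lower. In 3021 of the 16489 genes (18.3%) the 3 HDC-KO and 3 WT levels did not overlap. They did not overlap in 390 of the 530 genes called higher and in 258 of the 305 called lower. Groups that stand apart are thus usual among called genes. In 8828 (53.5%) all 3 pairs had the same sign, 5249 higher and 3579 lower. Against the same WT arrays, STAT6-KO was higher in 437 of the 530 genes called higher and lower in 299 of the 305 called lower. Over all 16489 genes it was higher in 7108 and lower in 9329. Both comparisons use the same WT arrays, so their signs are not independent.

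By the fitted difference, 3 genes of the Oas1 cluster on chromosome 5 had the largest rises, of which Oas1g was measured as a bound only. Oas genes encode 2'-5' oligoadenylate synthetases, interferon-induced enzymes that activate the antiviral nuclease RNase L. Oas1a was at -5.91, -3.41, and -7.00 in WT and at 4.33, 3.83, and 4.59 in HDC-KO, a rise of 9.69 ± 0.91 (adjusted p = 0.00773, limma). Oas1f was at -3.68, -3.16, and -4.02 in WT and at 3.30, 2.72, and 3.41 in HDC-KO, a rise of 6.76 ± 0.50 (adjusted p = 0.00431). By its brightest probe, Oas1g was not well above background on any WT array and lay between -2.78 and -2.06 in HDC-KO, at least 17.7-fold higher. The second probe of Oas1g differed by 1.41, a smaller rise than this bound, and that of Oas1a by 6.75. By the brightest probe all 3 genes stood apart between groups at every time point. On the WT control array Oas1a (-3.89), Oas1f (-3.69), and Oas1g (-9.09) were within or below the WT range after MI. The other 8 Oas family genes tested did not pass the threshold and all were lower on average. Oas2, one of them, was at 5.23, 4.82, and 4.63 in WT and at 4.26, 3.83, and 4.25 in HDC-KO (-0.78 ± 0.39, adjusted p = 0.263). These genes are close copies of each other, and hybridisation of one gene's RNA to another's probe was not tested. In STAT6-KO spleen after MI, set against the same WT arrays, Oas1a, Oas1f, and Oas1g differed from WT by 9.74, 6.70, and 6.30.

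The promoters of Oas1a and Oas1g, from 250 bases before to 50 bases after the gene start (RefSeq, GRCm38.p6), are shown because these genes were higher while most interferon-induced genes were lower on average. Capitals mark matches to the core of the interferon-stimulated response element (ISRE), GAAA and GAAA with 2 bases of any kind between them, on either strand, of which each promoter holds 2 that overlap, the first at base -20 in Oas1a and at -18 in Oas1g. Of 27025 promoters of this length (1 per gene), 943 (3.49%) held such a match, and the promoter of Oas1f held none.
Oas1a, chr5:120907476-120907775, minus strand: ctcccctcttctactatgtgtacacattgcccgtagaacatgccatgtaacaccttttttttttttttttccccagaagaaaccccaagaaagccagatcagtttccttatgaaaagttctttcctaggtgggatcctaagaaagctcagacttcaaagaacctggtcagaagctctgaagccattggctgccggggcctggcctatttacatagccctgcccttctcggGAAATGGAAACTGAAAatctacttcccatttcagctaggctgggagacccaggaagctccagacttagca
Oas1g, chr5:120887564-120887863, minus strand: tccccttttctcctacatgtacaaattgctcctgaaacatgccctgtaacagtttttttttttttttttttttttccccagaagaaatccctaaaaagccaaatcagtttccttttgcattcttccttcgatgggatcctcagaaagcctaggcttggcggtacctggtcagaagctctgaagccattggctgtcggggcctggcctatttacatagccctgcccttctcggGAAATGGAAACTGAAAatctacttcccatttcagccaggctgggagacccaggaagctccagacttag

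Outside the Oas family, Musk, the receptor kinase of the neuromuscular junction, was not well above background on any WT array after MI. It lay at -4.08, -3.55, and -3.28 in HDC-KO, at least 8.04-fold higher. Perp, a desmosomal membrane protein, was at -6.46, -5.79, and -5.35 in WT and at -0.77, -2.28, and -1.34 in HDC-KO, a rise of 4.40 ± 0.54 (adjusted p = 0.0151, limma). Unlike the Oas1 genes, Musk and Perp differed in STAT6-KO by -0.47 and 1.23. The rest of the 12 largest rises were the odorant receptor genes Olfr1023, Olfr507, and Olfr805, the metalloprotease Adamts9, the carboxypeptidase Cpa4, the phospholipase Plch1, and Pfpl, with fitted rises of 3.25 to 4.11. Of these, Olfr507, Olfr805, Adamts9, Cpa4, and Plch1 were not well above background on any WT array, so that the rise is a bound of at least 3.74-, 3.30-, 2.76-, 3.09-, and 3.39-fold. Olfr1023 and Pfpl were well above background on 1 of the 3 WT arrays, so that their sizes rest on signals near background. Their lowest rises over the alternative settings were 1.985 and 1.138. The WT control array held Adamts9 at -2.97, above the HDC-KO levels of -6.77, -4.54, and -4.23. Of the 12 genes, 7 were not well above background on any WT array, and Oas1f alone was well above it on all 6 arrays. Those 7 entered the test through the HDC-KO arrays alone.

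The largest falls included several genes that interferon induces. Of the 12, 9 were well above background on all 6 arrays. Gm4841, F830016B08Rik, and Gm4951, relatives of the interferon-inducible GTPases on chromosome 18, fell by 4.57 ± 0.64 (adjusted p = 0.0194), 3.52 ± 0.14 (adjusted p = 0.000452), and 3.07 ± 0.23 (adjusted p = 0.00426, limma) on the log2 scale. Gm4841 was well above background on 1 of the 3 HDC-KO arrays, so that its size rests on signals near background, and it was -2.22 after normexp. Gm4951 was at 3.54, 2.98, and 2.64 in WT after MI and at 0.33, -0.44, and 0.07 in HDC-KO. Its level on the WT control array was -0.04, inside the HDC-KO range, as was the -4.59 of F830016B08Rik, whose WT levels after MI were -1.14, -1.85, and -0.93 and whose HDC-KO levels were -4.53, -5.36, and -4.58. C130026I21Rik, which is related to the nuclear body protein genes Sp100 and Sp140, was at 1.66, 1.41, and 1.52 in WT and at -1.71, -1.85, and -1.56 in HDC-KO (-3.24 ± 0.14, adjusted p = 0.000452). Its second probe differed by -1.44. H2-Q8, a class Ib antigen-presenting molecule of a family of close copies, was at 3.54, 3.16, and 3.21 in WT and at 0.02, 0.40, and 1.06 in HDC-KO (-2.81 ± 0.47, adjusted p = 0.0296). In STAT6-KO, against the same WT arrays, Gm4841, F830016B08Rik, Gm4951, C130026I21Rik, and H2-Q8 differed by -4.77, -3.55, -2.78, -2.91, and -3.51.

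A further group of falls had WT levels that were alike with and without MI. Jmjd7, a lysyl hydroxylase, was at -1.92, -1.33, and -2.29 in WT after MI, -2.03 on the WT control array, and -5.17, -4.09, and -4.53 in HDC-KO (-2.75 ± 0.23, adjusted p = 0.00536, limma). Rbbp9, a serine hydrolase, was at -1.02, -1.19, and -1.25 in WT, -0.88 on the control array, and -3.46, -3.60, and -4.32 in HDC-KO (-2.64 ± 0.18, adjusted p = 0.00389). Arl2bp, a partner of the small GTPase Arl2, was at 3.82, 4.26, and 4.21 in WT, 3.80 on the control array, and 1.24, 1.33, and 1.56 in HDC-KO (-2.72 ± 0.22, adjusted p = 0.00528). The second probe of Rbbp9 differed by 0.92 and that of Arl2bp by 0.17, the other way. Against the same WT arrays, the STAT6-KO differences were -0.00 for Jmjd7, 0.29 for Rbbp9, and -0.57 for Arl2bp, and that of Hdc was -0.17. The remaining falls among the 12 were the sperm protamine gene Prm1 (-3.20, well above background on 1 of the 3 HDC-KO arrays, and -1.31 after normexp), the adhesion receptor Adgrb1 (-3.10), and Trim30e-ps1, which was not well above background on any HDC-KO array and was at least 2.01-fold lower. The second probe of Adgrb1 differed by -0.28.

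**Figure D1:**
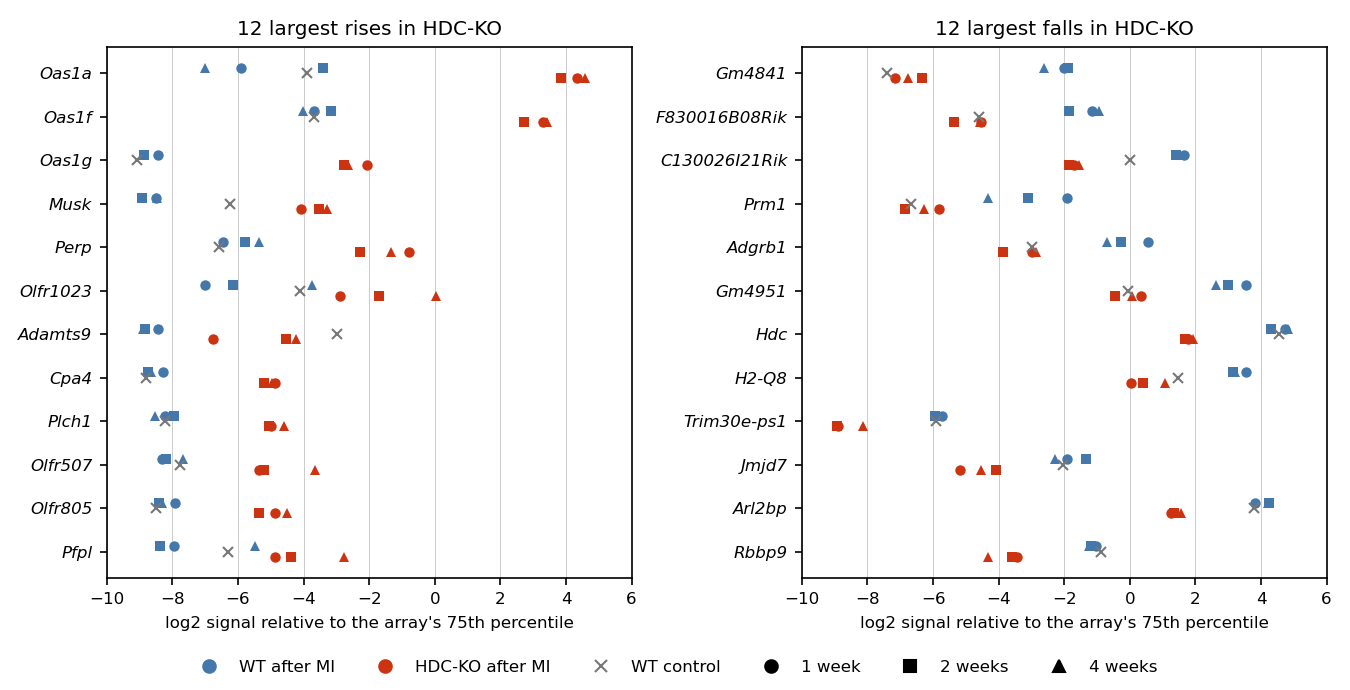
Level of the 12 genes with the largest fitted rise (left) and the 12 with the largest fitted fall (right) in HDC-KO against WT spleen CD11b+ cells after MI. The x axis is the log2 signal relative to the array's 75th percentile, each point is 1 array, colours are groups, shapes are weeks after MI, and the grey cross is the WT control array, so that Hdc, for example, sits between 4.32 and 4.83 in WT and between 1.67 and 1.93 in HDC-KO, and the control cross of Gm4951 lies at -0.04 with the HDC-KO points.

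GTPases induced by interferon were lower in HDC-KO as a group. Guanylate-binding proteins (Gbp genes) and immunity-related GTPases (Igtp, Iigp1) attack the vacuoles of intracellular pathogens and are induced above all by interferon gamma. Of 17 tested, 6 passed the threshold, all lower, against 1.85% of all genes. In all 3 pairs 16 were lower, against 3579 of all 16489 genes. The median difference was -1.42, with 0.05 over all genes. STAT6-KO, against the same WT arrays, gave a median of -1.44 for the 17 genes. The median level was 2.92, 2.64, and 3.16 in WT and 2.22, 1.54, and 1.25 in HDC-KO, with 1.23 on the WT control array. Gbp5, which promotes inflammasome assembly, was at 1.52, 1.11, and 1.49 in WT and at -0.57, -0.99, and -0.64 in HDC-KO (-2.11 ± 0.38, adjusted p = 0.0338, limma), with -0.83 on the control array. Gbp3 was at 4.19, 3.70, and 3.78 in WT and at 2.95, 2.14, and 2.28 in HDC-KO (-1.43 ± 0.26, adjusted p = 0.0352). Igtp was at 4.71, 4.39, and 4.40 in WT and at 3.03, 2.91, and 2.86 in HDC-KO (-1.57 ± 0.32, adjusted p = 0.0428), with 2.50 on the control array. Iigp1 (-1.22), Gbp8 (-0.83), and Gbp9 (-1.50) were lower too, and in each of the 6 the groups did not overlap. Nor did they in 18.3% of all genes and in 258 of the 305 called lower. Gbp2 missed the threshold with a difference of -1.95 (adjusted p = 0.0574). The count rose to 14 of 17 on the 6 arrays alone and without the STAT6-KO 4 week array, which enters the estimate of the spread, and was 0 when any 1 time point was left out.

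The promoters of Gbp5 and Igtp are shown because the list they belong to fell together. Capitals mark the ISRE core on either strand and the gamma-activated site TTCNNNGAA, which is its own reverse complement. No 2 matches overlap in either promoter. Of the 17 GTPases, 10 had a promoter in the table, of which 10 held the ISRE core and 6 held TTCNNNGAA, against 3.49% and 8.47% of all 27025 promoters. A match is a match of letters and no measurement of binding.
Gbp5, chr3:142496684-142496983, plus strand: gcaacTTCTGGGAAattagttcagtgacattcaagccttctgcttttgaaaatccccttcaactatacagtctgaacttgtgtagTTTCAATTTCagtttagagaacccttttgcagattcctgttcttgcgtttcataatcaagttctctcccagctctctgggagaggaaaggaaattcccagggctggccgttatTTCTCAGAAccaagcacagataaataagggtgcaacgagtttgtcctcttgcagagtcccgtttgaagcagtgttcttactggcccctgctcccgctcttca
Igtp, chr11:58199306-58199605, plus strand: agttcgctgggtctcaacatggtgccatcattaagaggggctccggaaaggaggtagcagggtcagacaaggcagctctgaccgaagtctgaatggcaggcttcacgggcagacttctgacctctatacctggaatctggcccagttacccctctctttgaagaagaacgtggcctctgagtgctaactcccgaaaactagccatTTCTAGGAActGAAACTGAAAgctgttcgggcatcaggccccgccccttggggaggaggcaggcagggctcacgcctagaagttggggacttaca

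Other interferon-induced genes were lower on average with larger spread. None of 34 antiviral genes passed the threshold (limma), and 16 had an unadjusted p under 0.05. In 29 of them HDC-KO was lower in all 3 pairs, against 3579 of all 16489 genes. The median difference of the 34 was -1.18, -1.11, and -0.43 at 1, 2, and 4 weeks. Isg15, a ubiquitin-like modifier, was at 5.82, 5.54, and 5.61 in WT and at 4.16, 3.54, and 4.96 in HDC-KO (-1.44 ± 0.38, adjusted p = 0.0747, limma). On the 6 arrays alone 13 of the 34 passed, and 14 did without the STAT6-KO 4 week array. The STAT6-KO median for the 34 genes, against the same WT arrays, was -0.67. The chemokine Cxcl9, an interferon gamma target that attracts T cells, was lower: it was at 2.27, 1.21, and 0.81 in WT, -0.49, -0.97, and -0.77 in HDC-KO, and -0.46 on the control array (-2.17 ± 0.38, adjusted p = 0.0314). Cxcl10 differed by -2.02 ± 0.53 (adjusted p = 0.0724). Socs1, an inhibitor of interferon signalling, was lower by -1.09 ± 0.18 (adjusted p = 0.0272), and the inflammasome sensor Nlrp1a was at 4.74, 4.61, and 4.30 in WT and at 2.71, 2.64, and 2.15 in HDC-KO (-2.05 ± 0.16, adjusted p = 0.00431). Il18bp, the secreted inhibitor of interleukin 18, was lower by -1.62 ± 0.25 (adjusted p = 0.0233), as was the B cell survival factor Tnfsf13b (-1.62 ± 0.27, adjusted p = 0.0296).

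Genes of splenic macrophages were higher in HDC-KO. Of 25 genes of red pulp and marginal zone macrophages tested, 10 passed the threshold, all higher, against 3.21% of all genes. In all 3 pairs 17 were higher, against 5249 of all 16489 genes. The median difference was 0.88, and 0.99, 0.27, and 1.25 at 1, 2, and 4 weeks. Marco, a scavenger receptor of marginal zone macrophages, was at -1.32, -1.04, and -0.86 in WT and at 1.90, 0.85, and 1.82 in HDC-KO, a rise of 2.59 ± 0.30 (adjusted p = 0.0129, limma). Fabp4, a fatty acid carrier, was at 0.18, -0.57, and -0.91 in WT and at 1.98, 1.61, and 1.83 in HDC-KO (2.24 ± 0.29, adjusted p = 0.0165). Vcam1, an adhesion molecule of red pulp macrophages, was at 3.56, 3.09, and 3.21 in WT and at 4.93, 4.34, and 4.98 in HDC-KO (1.46 ± 0.19, adjusted p = 0.0168). In each of these genes every HDC-KO array lay above every WT array, as in 390 of the 530 genes called higher. Cd209b, a lectin of the marginal zone, was not well above background on any WT array and was on all 3 HDC-KO arrays (at least 1.95-fold higher). C1qa, a complement subunit, rose by 1.09 ± 0.20, Axl, a receptor for dying cells, by 0.95 ± 0.17, the haemoglobin scavenger receptor Cd163 by 1.44 ± 0.27, and the mannose receptor Mrc1 by 1.34 ± 0.27, with Hpgd and Slco2b1 making up the 10.

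On the WT control array these macrophage genes were near the HDC-KO levels after MI. The control level was nearer to the HDC-KO mean than to the WT mean in 21 of the 25, against 59.1% of all genes. The share was 52.8% of genes called higher and 71.5% of genes called lower. Calls were made on the same WT arrays, so that such shares are not independent of the calls. The median level of the list was 2.69 on that array, 1.66, 1.34, and 0.98 in WT after MI, and 2.68, 1.94, and 2.49 in HDC-KO after MI. Marco was at 1.46, Fabp4 at 2.26, and Vcam1 at 5.13 on the control array. The summed signal of the 25 genes, as a multiple of the 75th percentile, was 156 to 173 in WT and 186 to 310.4 in HDC-KO, and 282 on the control array. In a bulk sample more cells of a type and more RNA per cell cannot be told apart. Hmox1 (0.88 ± 0.30, adjusted p = 0.126) and Spic (0.82 ± 0.29, adjusted p = 0.135), which mark red pulp macrophages, did not pass, and the ferroportin gene Slc40a1 differed by 0.16 ± 0.19. The count was 12 on the 6 arrays alone, 5 with median scaling, and 0, 1, and 0 without the 1, 2, and 4 week arrays. In other myeloid lists the members went both ways. Of 23 genes of monocyte and macrophage identity 3 passed, all higher, against 3.21% of all genes. In that list 8 were lower on average, with a median difference of 0.18. Mertk, a receptor for dying cells, was one of the 3 (1.53 ± 0.28, adjusted p = 0.0336). Of 12 beta 2 integrins and partners 6 were lower on average, and of 13 Fc receptors 4 were lower. In each list 1 passed, higher, against 3.21% of all genes. These were Itgad, the alpha chain of another CD11 integrin (1.36 ± 0.19, adjusted p = 0.0194), and Fcgrt, the neonatal Fc receptor (1.00 ± 0.19, adjusted p = 0.0385). Mgl2, a lectin of type 2 activated macrophages and dendritic cells, was lower, at 5.04, 4.98, and 4.68 in WT and 3.50, 3.48, and 3.11 in HDC-KO (-1.54 ± 0.15, adjusted p = 0.00773). Most members of its lists went the other way. Of 25 genes of type 2 activated macrophages 17 were higher and 8 lower on average, with 1 called higher and 2 lower. Of 24 dendritic cell genes 15 were higher and 9 lower, with 1 called, lower. Over all genes 3.21% were called higher and 1.85% lower. Set against the same WT arrays, STAT6-KO gave a median of 1.40 for the 25 genes of red pulp and marginal zone macrophages.

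Cell cycle genes were lower in HDC-KO. Of 42 genes of the cell cycle and DNA replication, 9 passed, all lower, against 1.85% of all genes, with a median difference of -0.77. In all 3 pairs 36 were lower, against 3579 of all 16489 genes. Mki67, the proliferation antigen, was at 3.47, 2.72, and 2.54 in WT and at 2.22, 1.16, and 1.30 in HDC-KO (-1.35 ± 0.23, adjusted p = 0.0315, limma). Ttk, a kinase of the spindle checkpoint, was at -2.27, -3.06, and -3.29 in WT and at -3.52, -4.42, and -4.45 in HDC-KO (-1.26 ± 0.18, adjusted p = 0.0194). Both were higher in every WT array than in any HDC-KO array, as were Cenpe and Ccna2, while the groups overlapped in 5 of the 9. Among all genes called lower, 258 of 305 did not overlap. The other 7 were the checkpoint genes Bub1b (-1.20) and Bub1 (-1.03), the mitotic motors Kif20a (-1.03), Kif11 (-1.01), and Cenpe (-1.16), the mitotic kinase Plk1 (adjusted p = 0.0396), and cyclin A2, Ccna2 (-1.11). All 9 act in the S to M phases. The replication clamp Pcna differed by 0.13 ± 0.16 (adjusted p = 0.656). Set against the same WT arrays, STAT6-KO gave a median of -0.72 for the 42 genes. The median level of the list was -0.25 on the WT control array, was 1.35, 0.81, and 0.27 in WT at 1, 2, and 4 weeks, and was 0.38, -0.09, and -0.12 in HDC-KO. The count was 18 on the 6 arrays alone, 17 with median scaling, and 0 when any 1 time point was left out.

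The promoters of Mki67 and Ttk are shown for the same reason. Capitals mark the cell cycle genes homology region TTTGAA and the CCAAT box, both on either strand, with no overlap between matches. Of the 42 genes 35 had a promoter in the table, of which 15 (42.9%) held TTTGAA and 28 (80%) held CCAAT, against 18.1% and 37.9% of all promoters.
Mki67, chr7:135716330-135716629, minus strand: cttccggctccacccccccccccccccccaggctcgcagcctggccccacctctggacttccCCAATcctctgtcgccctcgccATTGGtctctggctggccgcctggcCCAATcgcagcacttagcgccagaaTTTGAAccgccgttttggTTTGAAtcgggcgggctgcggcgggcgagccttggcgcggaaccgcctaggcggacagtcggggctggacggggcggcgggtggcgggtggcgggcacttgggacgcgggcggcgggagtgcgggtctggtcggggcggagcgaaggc
Ttk, chr9:83834439-83834738, plus strand: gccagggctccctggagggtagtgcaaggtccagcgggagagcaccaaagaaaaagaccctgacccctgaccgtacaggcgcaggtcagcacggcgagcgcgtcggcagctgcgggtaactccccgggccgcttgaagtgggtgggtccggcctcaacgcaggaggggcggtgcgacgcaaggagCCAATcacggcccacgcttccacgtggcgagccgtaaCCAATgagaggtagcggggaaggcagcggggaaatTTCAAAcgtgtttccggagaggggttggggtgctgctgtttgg

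Neutrophil granule proteins were lower in HDC-KO in most members. Of 19 genes tested, 2 passed, both lower, against 1.85% of all genes, with a median difference of -0.82. In all 3 pairs 16 were lower, against 3579 of all 16489 genes. Cd177, a surface protein of neutrophils, was at 1.16, 0.32, and 0.27 in WT and at -0.29, -1.45, and -1.81 in HDC-KO (-1.77 ± 0.24, adjusted p = 0.0186, limma). Lcn2, which binds bacterial iron carriers, was at 6.01, 5.66, and 5.43 in WT and at 5.06, 4.24, and 3.94 in HDC-KO (-1.28 ± 0.26, adjusted p = 0.0402). Neither gene overlapped between groups, as with 258 of the 305 genes called lower. Among 24 genes of mature neutrophils 2 passed, both lower, against the same 1.85%: the gelatinase Mmp9 (-1.41 ± 0.26, adjusted p = 0.0338) and the formyl peptide receptor Fpr2 (-1.39 ± 0.26, adjusted p = 0.0369). S100a8 and S100a9, subunits of calprotectin, differed by -0.37 ± 0.22 and -0.20 ± 0.22. In STAT6-KO, against the same WT arrays, the median was -1.10 for the granule genes and -0.16 for the mature neutrophil genes. The summed signal of the granule genes was 454 to 563 in WT, 240.3 to 362 in HDC-KO, and 319 on the control array. The count of granule genes was 11 on the 6 arrays alone and 9 without the STAT6-KO 4 week array, that of mature neutrophil genes 6 and 4, and both were 0 when any 1 time point was left out.

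T cell genes were higher in HDC-KO at each time point. T cells lack CD11b for the most part, and their RNA was detected on all 6 arrays. Of 24 genes, 7 passed, all higher, against 3.21% of all genes, with a median difference of 0.94. In all 3 pairs 20 were higher, against 5249 of all 16489 genes. Trat1, an adaptor of the T cell receptor, was at -3.81, -1.54, and -2.19 in WT and at -1.94, 0.66, and -0.28 in HDC-KO (1.99 ± 0.20, adjusted p = 0.009, limma). Il7r, the interleukin 7 receptor, was at -2.13, 0.16, and -0.87 in WT and at -0.59, 2.04, and 0.70 in HDC-KO (1.66 ± 0.27, adjusted p = 0.0274). The groups overlapped in all 7 genes, and in both genotypes each of the 7 was lowest at 1 week. Lat (1.24 ± 0.16), Bcl11b (1.23 ± 0.24), Cd6 (1.00 ± 0.20), Cd5 (0.96 ± 0.20), and Thy1 (0.91 ± 0.20) completed the 7. STAT6-KO, against the same WT arrays, gave a median of 0.39 for the 24 genes. The summed signal of the T cell genes ranged from 20.1 to 59.7 in WT and from 24.4 to 104 in HDC-KO, with 38.2 on the control array, and no member was below background on every array of a group. Their share in the other differences was not tested. The count was 13 on the 6 arrays alone, 0, 1, and 0 without the 1, 2, and 4 week arrays, and 0 without time point in the fit. Ccr4, a chemokine receptor of T cells, was higher as well (1.97 ± 0.35, adjusted p = 0.0332). Of 23 B cell genes 22 were higher on average, none passed the threshold (limma), 5 had an unadjusted p under 0.05, and their summed signal was 48.1 to 156 in WT and 51.8 to 171 in HDC-KO.

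Fibroblast genes were higher in a few members. Of 26 genes of collagens and fibroblast matrix, 5 passed, all higher, against 3.21% of all genes. Postn, a matrix protein, was at -1.14, -1.03, and -0.87 in WT, 1.65, 0.83, and 1.52 in HDC-KO, and 2.21 on the WT control array (2.35 ± 0.34, adjusted p = 0.0204, limma). Col14a1, a collagen that coats fibrils, was at -0.06, 0.15, and 0.47 in WT, 2.00, 1.42, and 2.17 in HDC-KO, and 1.92 on the control array (1.68 ± 0.34, adjusted p = 0.0409). Neither gene overlapped between groups, as with 390 of the 530 genes called higher. The collagen chaperone Serpinh1 (0.90 ± 0.14), the growth factor receptor Pdgfra (1.28 ± 0.26), and Lum were the others. Lum was well above background on 2 of the 3 HDC-KO arrays and on no WT array, so that no size is given for it. Summed signals of this list were alike in the groups, 57.7 to 76.1 in WT and 59.2 to 73.6 in HDC-KO. Its median in STAT6-KO, against the same WT arrays, was -0.09, with 0.43 in HDC-KO. The 5 genes that passed were all higher in STAT6-KO too, by 0.15 to 2.67. Of the 21 that did not pass, 8 were higher and 13 lower in STAT6-KO. The count was 8 on the 6 arrays alone, 2 with median scaling or quantile normalization, and 0, 1, and 0 without the 1, 2, and 4 week arrays.

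Cytokine, STAT, and adrenergic genes, the pathways the study asked about, changed in single members. Il1r1, the interleukin 1 receptor, was at -5.37, -4.58, and -4.15 in WT and at -2.19, -2.49, and -2.78 in HDC-KO (2.21 ± 0.47, adjusted p = 0.0457, limma), with -1.47 on the control array. Of 29 cytokines and their inhibitors 2 were higher and 2 lower (Il18bp and Tnfsf13b, above), against 3.21% and 1.85% of all genes. Pdgfb (1.01 ± 0.21) and Il12a (1.19 ± 0.26) were higher, and Il6 differed by 1.07 ± 0.36 (adjusted p = 0.126). In the beta-adrenergic pathway 2 of 20 genes passed, both higher, against 3.21% of all genes: Adcy3, an adenylate cyclase, was at -5.31, -5.02, and -5.05 in WT and at -3.49, -3.58, and -2.93 in HDC-KO (1.79 ± 0.22, adjusted p = 0.0158), and Prkaca, the catalytic subunit of protein kinase A, rose by 1.02 ± 0.14 (adjusted p = 0.0194). Of 22 STAT and SOCS genes 1 was lower (Socs1, above) and 1, Socs5, was higher (0.76 ± 0.15, adjusted p = 0.039), against 1.85% and 3.21% of all genes. Single calls in a list of this size are no change of the list. Stat6 was at 2.79, 2.75, and 2.90 in WT and at 2.92, 2.58, and 2.24 in HDC-KO (-0.24 ± 0.19, adjusted p = 0.474). Of 21 basophil and mast cell genes 16 were higher and 5 lower on average, with a median difference of 0.13. The 1 that passed, the basophil protease Prss34, was lower by -1.58 ± 0.34 (adjusted p = 0.0479). Of 19 genes of heat shock and the unfolded protein response 11 were higher and 8 lower on average. The 1 that passed, the stress-induced pseudokinase Trib3, was lower by -0.84 ± 0.18 (adjusted p = 0.0471). Over all genes 1.85% were called lower. No member passed among MHC class II presentation (16 tested), toll-like receptors (17), oxidative phosphorylation (38), immediate early genes (25), erythroid cells (31), plasma cells (18), NK and cytotoxic lymphocytes (21), eosinophils (13), or megakaryocytes and platelets (20), and between 0 and 5 members of each of these lists had an unadjusted p under 0.05 (limma).

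**Figure D2:**
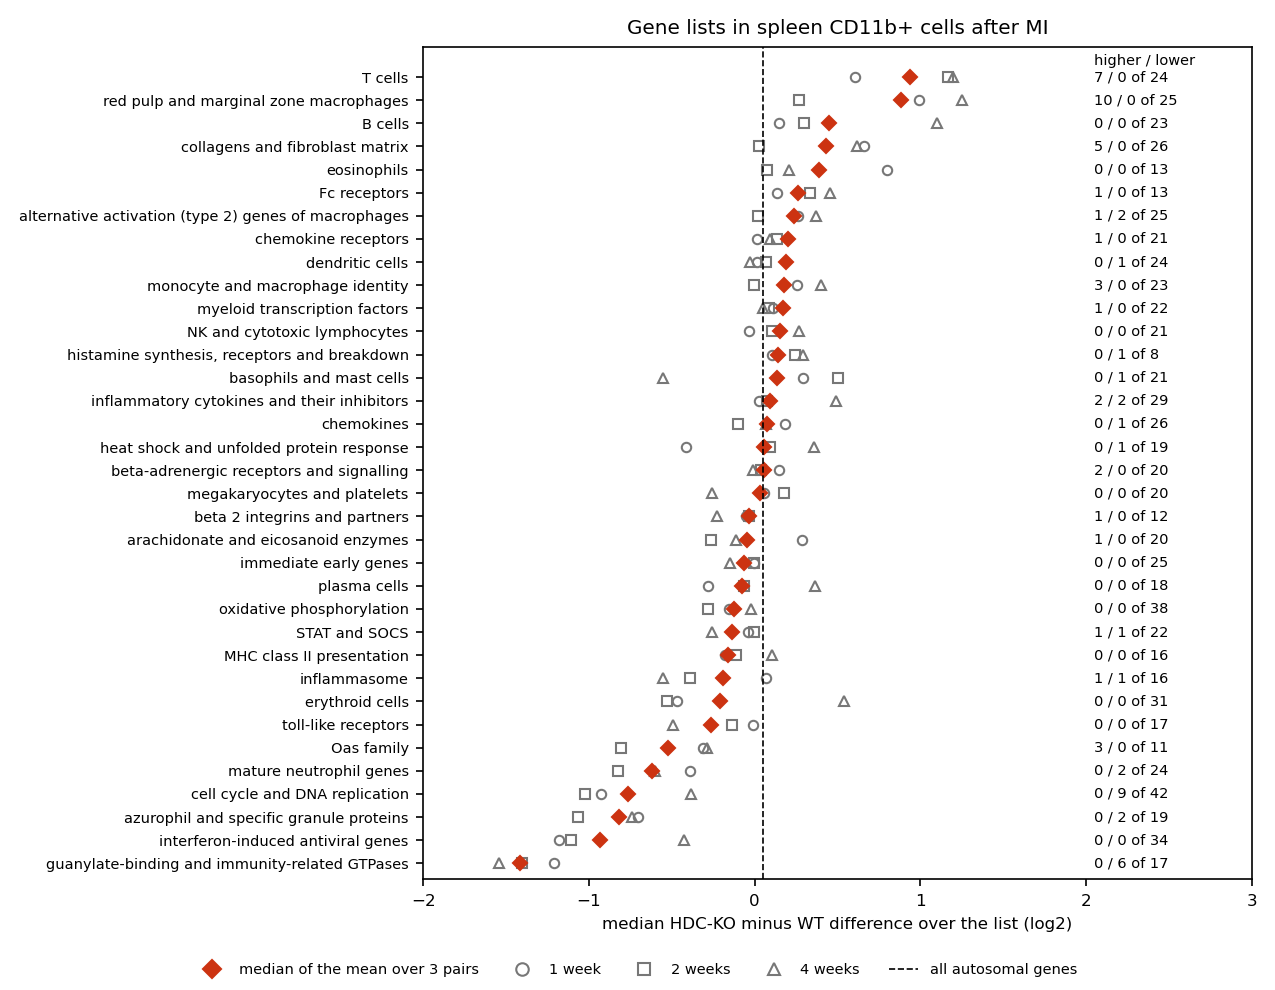
Median HDC-KO minus WT difference (log2, x axis) of 35 gene lists in spleen CD11b+ cells after MI. Diamonds are medians of the mean over 3 pairs, open symbols are medians at 1, 2, and 4 weeks, the dashed line is the median over all autosomal genes (0.05), and the numbers at right give members past the threshold, higher and lower, of those tested. T cells (7 of 24 higher, median 0.94) stand at the top and the GTPases (6 of 17 lower, median -1.42) at the bottom.

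**Figure D3:**
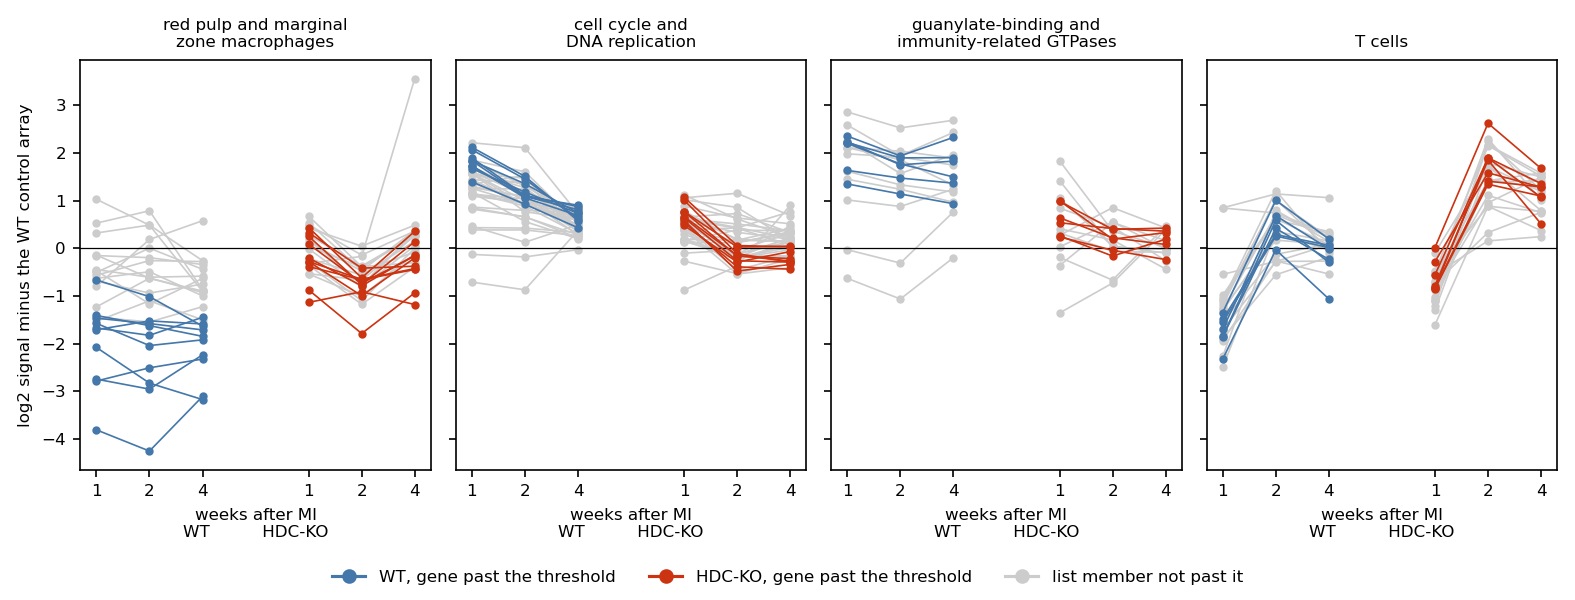
Level of each member of 4 lists on the 3 WT and 3 HDC-KO spleen arrays after MI, minus its level on the single WT spleen control array (log2, y axis), by week (x axis). Each line is a gene, blue (WT) or red (HDC-KO) if it passed the threshold and grey if not, and the 10 coloured macrophage genes run below the control level in WT and nearer to it in HDC-KO, while the 6 coloured GTPases run above it in WT. Coloured genes were chosen on these arrays, and in 59.1% of all genes the control level was nearer to the HDC-KO mean.

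The bone marrow arrays of the same genotypes and time points are other arrays from other cells, and 215 of 16796 genes (1.28%) passed there. Of the 801 genes called in spleen and tested in both tissues, 553 (69%) had the same sign in bone marrow, against 52.1% of all 16190 genes. The share was 77% for genes higher and 56.1% for genes lower in spleen, and 42 were called in bone marrow in the same direction and 7 in the opposite one. Several of the largest differences were there too: Hdc differed by -2.64 ± 0.26 (adjusted p = 0.0248, limma) in bone marrow, Oas1a by 8.56 ± 0.54 (adjusted p = 0.0225), Jmjd7 by -2.18 ± 0.24 (adjusted p = 0.0299), and Rbbp9 by -3.12 ± 0.17 (adjusted p = 0.0225). The GTPases had a median of -1.59 there, and 0 of the 17 passed (limma; 15 at an unadjusted p under 0.05). Cxcl9 differed by -2.06 (adjusted p = 0.0463).

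The HDC-KO effect on cell cycle genes differed between the tissues. Their median difference was 0.62 in bone marrow against -0.77 in spleen, 41 of 42 were higher there on average with 0 past the threshold (limma; 23 at an unadjusted p under 0.05), and the interaction term, which tests whether the HDC-KO effect differs between the tissues, passed for 21 of the 42, against 856 of 16190 genes (5.29%). For Bub1b the spleen effect less the bone marrow effect was -2.08 ± 0.25 (adjusted p = 0.0111, limma), and for Mki67 it was -1.80 ± 0.24 (adjusted p = 0.0134). In bone marrow itself the adjusted p of the 9 genes ranged from 0.134 for Plk1 to 0.315 for Ccna2. In the macrophage list Marco was higher in spleen and differed by -0.11 in bone marrow, an interaction of 2.70 ± 0.35 (adjusted p = 0.0123), while Vcam1 differed by 1.36 in bone marrow and its interaction did not pass (adjusted p = 0.868). The interaction passed for 8 of 19 granule genes, with a median in bone marrow of 0.16. It rests on few arrays: it passed for 0 genes without the 1 week arrays and 0 without the 4 week arrays (limma; 2982 and 2300 at an unadjusted p under 0.05).

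**Figure D4:**
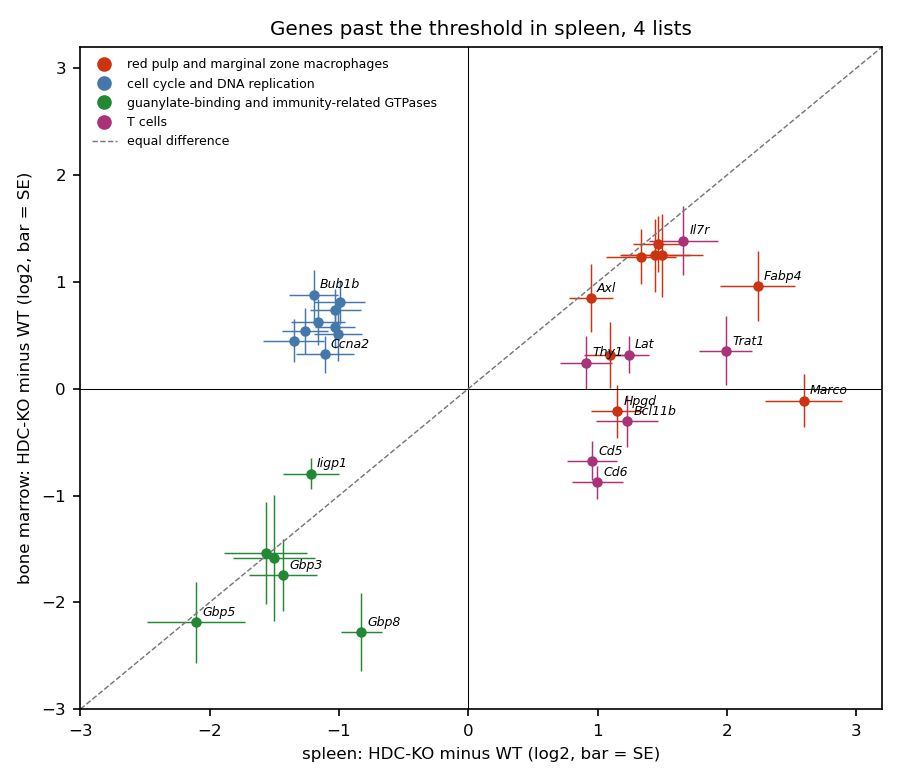
HDC-KO minus WT difference after MI in spleen (x axis) and bone marrow (y axis), log2 with SE bars, for genes past the threshold in spleen in 4 lists. Cd209b, not tested in bone marrow, is left out, the dashed line is an equal difference, and the 9 cell cycle genes lie below 0 in spleen and between 0.32 and 0.88 in bone marrow, while the 6 GTPases lie below 0 in both.

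Calls were spread over all 19 autosomes, from 3.08% of tested genes on chromosome 13 to 7.23% on chromosome 3. Hdc lies on chromosome 2, where 97 of 1379 genes (7.03%) were called, 56 higher and 41 lower. Besides Hdc, among the 400 tested genes nearest to it in gene order, 200 on each side, 37 (9.25%) were called, against 59 of the 978 farther away (6.03%). Among the nearest 100 it was 5 of 100. Jmjd7 lay 75 tested genes to one side and Rbbp9 131 to the other, and 15 of those 400 were called in bone marrow.

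**Figure D5:**
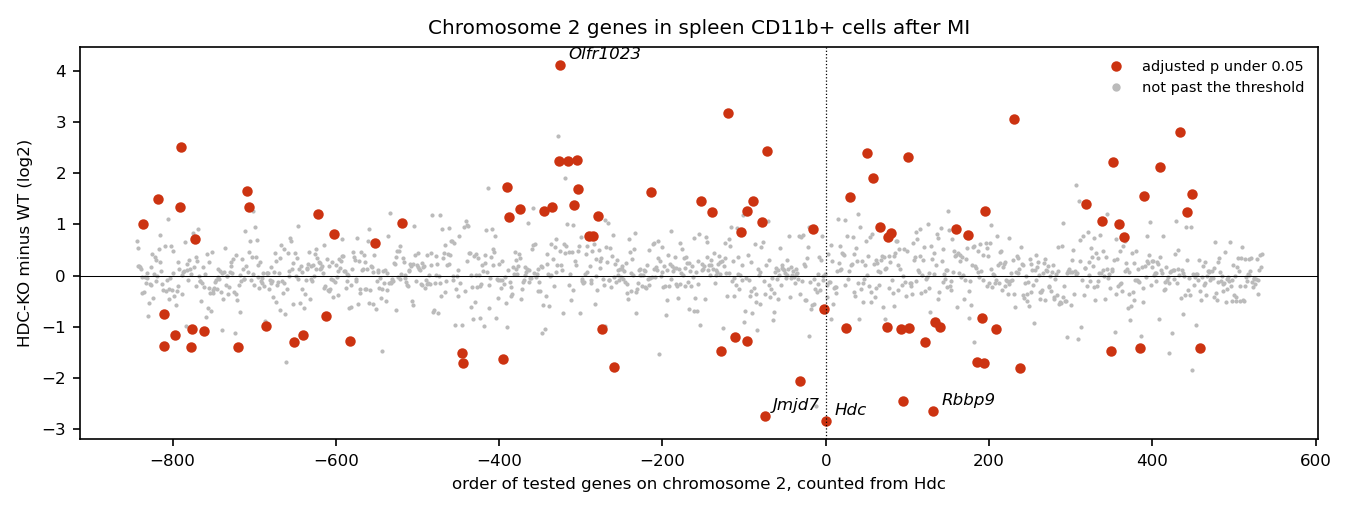
HDC-KO minus WT difference (log2, y axis) of the tested genes of chromosome 2 in their order counted from Hdc (x axis, number of tested genes). Red points passed the threshold and grey ones did not. Olfr1023 (4.11, well above background on 1 of the 3 WT arrays) is the highest point, and Hdc (-2.84), Jmjd7 (-2.75), and Rbbp9 (-2.64) are the lowest.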

How the data were processed

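The authors hybridised Cy3-labelled RNA to Agilent 4x44K mouse arrays and read them with Feature Extraction 11.0.1.1. The deposited values used here are spot intensity values on a linear scale, background-subtracted and detrended, not normalized between arrays, with flags for outliers and for spots well above background. The submitters' processing notes name GCRMA and the paper names Genespring, and neither output was used. Here 43020 spots that were not controls gave 39429 probes and, through RefSeq accessions, 20659 genes with a symbol. Outlier spots were left out, and log2 intensity minus the array's 75th percentile was used. The brightest probe stood for a gene, and genes well above background on under 2 of the 6 arrays were left out. limma 3.58.1 in R 4.3.3 fitted genotype and time point to 9 spleen arrays after MI (WT, HDC-KO, STAT6-KO), with Benjamini-Hochberg adjustment. The time point pairs the arrays by design. A bound replaced the fold of a gene not above background on every array of a group. Named genes were the 12 largest rises and falls of the same sign in all pairs and detected in the higher group, and from each list the 4 with the lowest p and the 2 brightest. Other list members were named after their values were seen. The genes and lists were chosen with earlier results of these data known. The fits were tested on simulated data. Plots were drawn with matplotlib 3.10.9. Arrays of the HDC-KO spleen control and of STAT6-KO bone marrow at 1 week held too few spots to scale. One gene is not reported here. The number of arrays limits the precision.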

Additional observations from a re-analysis of the deposited data

Results flagged for a closer look

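The HDC-KO effect after MI differed between spleen and bone marrow, by limma's interaction term with adjusted p under 0.05, in 856 autosomal genes, 20 of them named above. Each value here is the spleen effect less the bone marrow effect on the log2 scale. Among cell cycle genes it was -1.76 for Bub1, -2.08 for Bub1b, -1.44 for Ccna2, -1.79 for Cenpe, -1.52 for Kif11, -1.61 for Kif20a, -1.80 for Mki67, -1.81 for Plk1, and -1.80 for Ttk. Among macrophage genes it was 1.36 for Hpgd and 2.70 for Marco. Among T cell genes it was 1.53 for Bcl11b, 1.63 for Cd5, and 1.87 for Cd6. Among granulocyte and basophil genes it was -1.48 for Cd177, -1.45 for Lcn2, and -2.11 for Prss34. For Adcy3 it was 1.54, for Il1r1 2.28, and for Tnfsf13b -1.44. Each tissue and genotype had its own slide, as judged by scan date, so that slide and this difference cannot be told apart.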

How the results depend on the processing

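Against the 835 genes changed, the count was 542 with quantile normalization, 527 with no filter on dim probes, 1729 on the 6 arrays alone, 451 on all 11 spleen arrays, and 0 after normexp. The methods' t-test gave 743 genes at its own threshold and 0 after Benjamini-Hochberg. Without time point in the fit, that is with no replicate block, it was 84 genes, all among the 835. Leaving out the arrays of 1 time point gave 0 to 109 genes. The median scaling split (311 higher, 471 lower) stands beside the count, and a detected-probe percentile gave 648 higher and 275 lower, quantile normalization 275 and 267, and normexp on the 6 arrays 504 and 446. The count of genes differing between tissues (856) was 94 without the pairing block and 0 to 1167 with a time point left out. In bone marrow the 215 genes became 18 after normexp and 0 to 1165 with a time point left out. The medians of the 9 lists followed kept their sign in every alternative run for them, and the GTPase median was -1.59 with median scaling. On the 6 arrays alone and without time point in the fit the medians are the same by construction. All 85 named genes and called list members kept their direction in every alternative in which they were tested, and passed in 839 of 1343 such tests. None of the 85 passed after normexp or without the 4 week arrays. For none of these was the cause tested. Alternatives with normexp on the 6 arrays, without the STAT6-KO 4 week array, for bone marrow, and for list medians by scaling were chosen after seeing the data.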
